A study of Mus musculus with 2 samples.

Results

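The genes described here are 35 interferon-response genes of the mouse outside the Oas family, chosen by name, out of 36998 gene names on the array. They comprise 22 interferon-induced genes, 5 sensors of foreign nucleic acid, 6 transcription factors and the 2 subunits of the type I interferon receptor. A probe carrying the gene's name was present for 34 of them, with Sting1 listed under its older symbol Tmem173, and Ifitm2 had none. Of these, 31 were well above background on both arrays, and Ifit2, Ifit3 and Mx1 were well above background on the knockout array alone. Their levels were compared in unfertilised oocytes of Mul1 knockout (Mul1 -/-) and wild-type (Mul1 +/+) C57BL/6 mice, which received no treatment that the labels name. Mul1 encodes a ubiquitin and SUMO ligase of the mitochondrial outer membrane, and the series asks about oxidative stress and early embryos in its absence. RNA of 123 pooled knockout oocytes and of 213 pooled wild-type oocytes was amplified and read on Agilent arrays of 1 colour (Cy3), 1 array for each genotype. The labels give neither the number of mice in a pool nor the allele or the deleted part of Mul1.

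Type I interferons bind the receptor formed by Ifnar1 and Ifnar2, whose kinases phosphorylate STAT proteins. A complex that includes STAT2 and IRF9 then binds the interferon-stimulated response element in the promoters of antiviral genes. The signal that starts interferon synthesis comes from sensors such as RIG-I and MDA5, which act through MAVS on the mitochondrial outer membrane, or from the cGAS and STING pathway. In cultured cells MUL1 has been reported to act on RIG-I signalling and to ubiquitinate STING. Many induced genes, sensors and transcription factors of this system are themselves interferon-stimulated, whereas the receptor subunits are expressed constitutively in most cells.

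Values are processed signals of single probes, in the scanner's linear intensity units, or log2 differences, knockout minus wild type, once signals were divided by the array's 75th percentile. A gene's difference averages those of its probes that passed the background criterion on both arrays. With 1 array per genotype no test was possible, and a difference has no replicate check. The error given with a difference is the one the scanner software assigns to the 2 signals, about 0.20 for a single bright probe, and it leaves out variation between oocyte pools. At the probe for its RefSeq transcript, Mul1 read 1074 on the knockout array and 3353 on the wild-type array. A dim Mul1 probe for an Ensembl transcript read 23.1 on the knockout array and 19.3 on the wild-type array. Of 12 oocyte markers, 11 were well above background on both arrays, with differences from -0.21 for Dppa3 to 0.94 for Ooep, and Figla passed on the wild-type array alone. At least 1.5-fold higher on the knockout array were 2 of the 11, against 7.83% of all gene names. These were the dim Ooep and Nlrp5, which stood at 0.77 over 3 probes from 0.71 to 0.89. The housekeeping genes Gapdh and Actb differed by 0.05 and 0.00.

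Higher values on the knockout array prevailed among the interferon-response genes. Of the 31 measured members, 6 were at least 2-fold higher on the knockout array (19.4%), against 2.93% of all 22890 measured gene names. These 6 were Zbp1, Ifit1, Trim30a, Ifitm1, Rsad2 and Ifi44. With normexp background correction, which compresses dim probes, Ifitm1 was the 1 member past 2-fold, against 0.926% of all gene names. None was at least 2-fold lower, where 1.37% of all gene names were. At 1.5-fold the counts were 13 higher and 0 lower, against 7.83% and 5.19% of all gene names. In total 25 of 31 lay above 0, against 54.8% of all gene names, and their median difference was 0.46, against 0.03 for all gene names. Of the 34 members with a probe, 3 were well above background on the knockout array alone and 0 on the wild-type array alone, against 2.22% and 3.42% of all gene names.

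**Figure D1:**
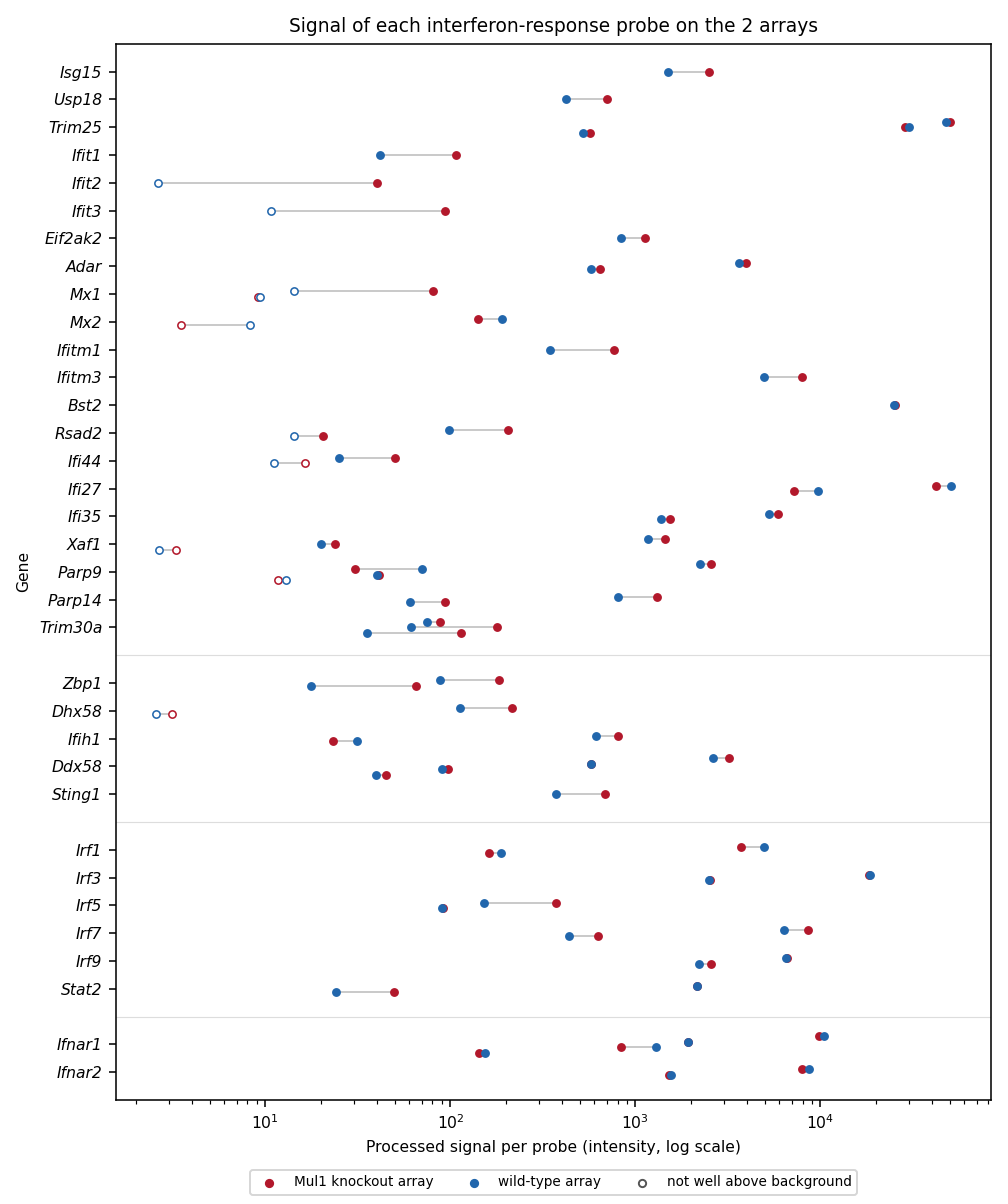
Processed signal of each of the 67 probes of 34 members, on a log intensity axis, with the Mul1 knockout array in red, the wild-type array in blue, and open circles for spots not well above background. Genes run by class from top to bottom (induced genes, sensors, transcription factors, receptors), and the red point lies to the right of the blue one for most dim induced genes, among them Ifit1 at 106.5 and 41.7.

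The 3 members seen on the knockout array alone are antiviral effectors. Ifit2, which encodes an RNA-binding inhibitor of translation, read 40.1 on the knockout array and 2.62 on the wild-type array, where it was not well above background. Its partner gene Ifit3 read 93.6 on the knockout array and 10.8 on the wild-type array. Mx1 encodes a dynamin-like antiviral GTPase and carries an inactivating deletion in C57BL/6 mice. Its brighter probe read 80.8 on the knockout array and 14.3 on the wild-type array. All 3 wild-type signals were below or close to the lowest signal well above background on that array, 12.9. Set against that lowest signal, the knockout signal was at least 3.19-fold higher for Ifit2 and at least 7.45-fold for Ifit3. The Mx1 wild-type signal lay above it, so the 5.77-fold of Mx1 is the measured ratio and not a bound (difference 2.53 ± 0.38, scanner error). A further Mx1 probe read 9.17 on the knockout array and 9.38 on the wild-type array and was well above background on neither. The file places 25 of its 60 bases on the genome at that position, against all 60 of the brighter Mx1 probe. The probes behind these folds are shown because each gene's call rests on a single spot per array, with no stretch singled out by capitals. On mm9 they lie at chr19:34650244-34650303 (Ifit2, plus strand), chr19:34663105-34663164 (Ifit3, plus strand) and, on the minus strand, chr16:97668644-97668703 and chr16:97668644-97668668 (Mx1, brighter and dimmer probe). Whether these positions are exonic or in a UTR was not looked up, since no mm9 annotation was used.
Ifit2: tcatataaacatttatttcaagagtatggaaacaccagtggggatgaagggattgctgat
Ifit3: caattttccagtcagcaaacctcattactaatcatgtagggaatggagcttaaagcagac
Mx1, brighter probe: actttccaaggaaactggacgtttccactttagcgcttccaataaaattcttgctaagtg
Mx1, dimmer probe: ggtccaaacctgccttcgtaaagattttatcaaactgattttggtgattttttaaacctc
The probe of the near-identical neighbour Ifit3b shared no more than 8 consecutive bases with the Ifit3 probe. It differed from the Ifit3 probe at 41 positions when laid side by side without gaps. This compares the probes only, and whether each also detects the transcript of the other gene was not tested. Ifit3b was also well above background on the knockout array alone, at 24.8 on the knockout array and 2.68 on the wild-type array.

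The IFIT proteins and the double-stranded RNA enzymes act on RNA in the cytosol. Ifit1, which binds viral RNA lacking cap methylation, read 106.5 on the knockout array and 41.7 on the wild-type array, a difference of 1.39 ± 0.23 (scanner error, 1 probe). Eif2ak2, the gene of the translation-blocking kinase PKR, read 1125 on the knockout array and 837 on the wild-type array, a difference of 0.46. The RNA editing gene Adar read 3935 on the knockout array and 3625 on the wild-type array at its brighter probe, and its 2 probes differed by 0.15 and 0.20. Its difference stayed near the size of the scanner error, while the Ifit1 difference was several times that error.

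Isg15 and its enzymes form the ubiquitin-like arm of the response. Isg15, the ubiquitin-like modifier, read 2506 on the knockout array and 1493 on the wild-type array, a difference of 0.78 ± 0.20 (scanner error). Usp18, which removes ISG15 from its targets and damps signalling at IFNAR2, read 701 on the knockout array and 424 on the wild-type array, a difference of 0.76. The folds were 1.72 for Isg15 and 1.69 for Usp18, both higher on the knockout array. Trim25, a ligase that acts on RIG-I and conjugates ISG15, had a difference of 0.07 over 3 probes that ran from -0.05 to 0.16. Its brightest probe read 49976 on the knockout array and 47793 on the wild-type array. The 60 bases of that probe span 6226 on mm9 and end in a run of gt repeats, and what else it detects was not tested. The brighter of the Trim25 RefSeq probes read 28543.8 on the knockout array and 30164.5 on the wild-type array (-0.05). This bright gene was within the scanner error of 0 on average.

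Of 4 measured membrane-acting restriction factor genes, 3 were at least 1.5-fold higher on the knockout array, against 7.83% of all gene names. Ifitm1, which hinders fusion of viral and cellular membranes, read 766 on the knockout array and 345 on the wild-type array, a 2.27-fold higher value on the knockout array. Ifitm3, its endosomal relative, read 7980 on the knockout array and 4974 on the wild-type array, a difference of 0.71. Rsad2, the gene of viperin, which makes a chain-terminating nucleotide, read 206 on the knockout array and 98.7 on the wild-type array, a difference of 1.09 ± 0.21 (scanner error). A dimmer Rsad2 probe read 20.6 on the knockout array and 14.2 on the wild-type array and passed background on the knockout array alone. Bst2, the gene of tetherin, which holds budding virions at the cell surface, read 25271 on the knockout array and 25105 on the wild-type array, a difference of 0.04. The IFITM genes are close paralogs, and hybridisation of one to the probe of another was not tested.

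The remaining induced genes lay on both sides of 0. Trim30a, a mouse TRIM protein that restrains Toll-like receptor signalling, had a mean difference of 1.19, but its 3 probes did not agree in size. The probe for its RefSeq transcript read 178 on the knockout array and 61.5 on the wild-type array (1.57), that for AK138249 read 114 on the knockout array and 35.3 on the wild-type array (1.73), and that for AK089726 read 87.6 on the knockout array and 74.6 on the wild-type array (0.26). Ifi44 read 49.95 on the knockout array and 24.9 on the wild-type array, a difference of 1.04 ± 0.29 (scanner error), just past 2-fold. Parp14, a mono-ADP-ribosyltransferase, differed by 0.74 and 0.66 at its 2 probes, the brighter one reading 1312 on the knockout array and 805 on the wild-type array. Xaf1, which antagonises the apoptosis inhibitor XIAP, differed by 0.32, and Ifi35, whose product pairs with NMI, by 0.19. Parp9, which works with the ligase DTX3L, averaged -0.30 over probes from -1.18 to 0.23. Its brightest probe read 2545 on the knockout array and 2225 on the wild-type array, so the negative mean came from a dim probe that read 30.4 on the knockout array and 70.2 on the wild-type array. Ifi27 was lower on the knockout array at both probes, reading 42307 on the knockout array and 51018 on the wild-type array at the brighter one. Mx2, a relative of Mx1, read 141 on the knockout array and 191 on the wild-type array, a difference of -0.40 ± 0.21 (scanner error). Over the 18 induced genes measured on both arrays the median difference was 0.58, with 15 above 0 and 5 at least 2-fold higher (27.8%). Of all gene names, 54.8% were above 0 and 2.93% at least 2-fold higher.

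**Figure D2:**
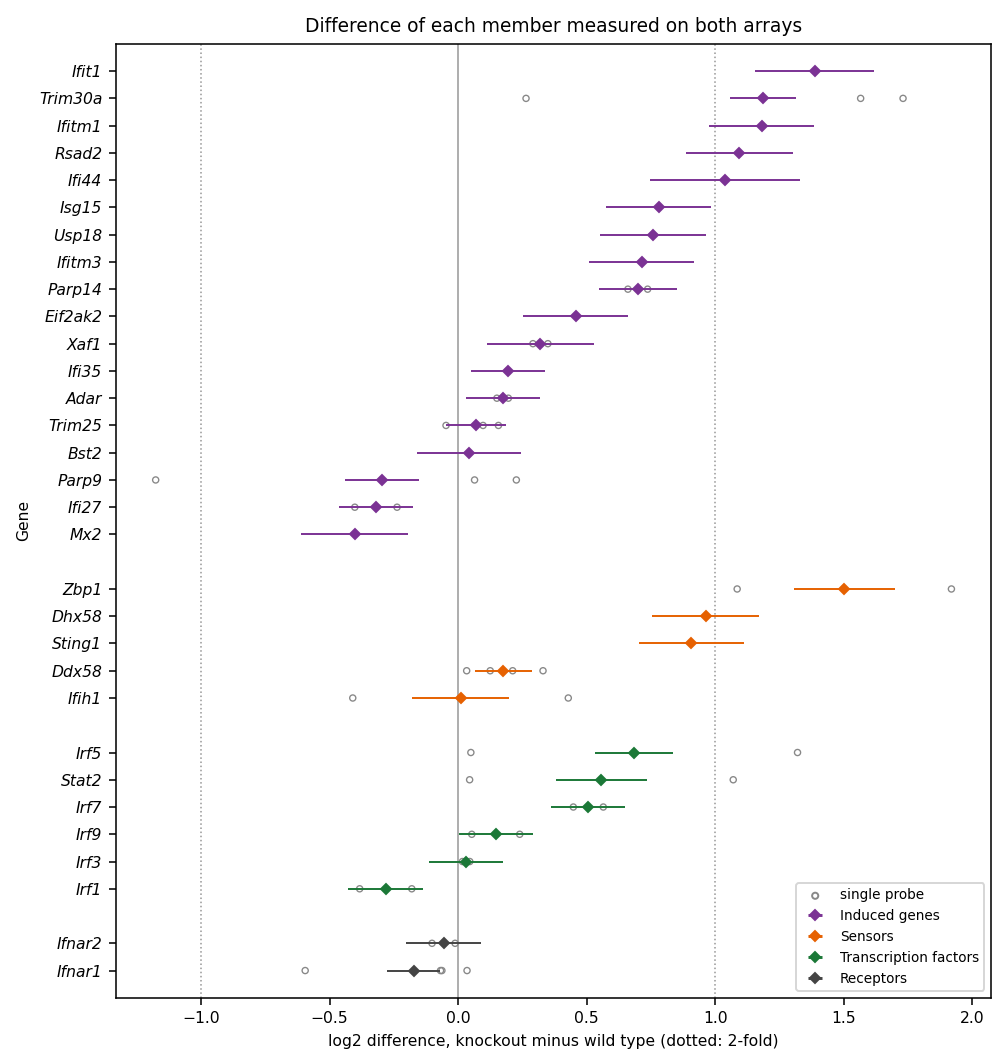
The log2 difference, knockout minus wild type, of each of the 31 members measured on both arrays, by class from top to bottom, with diamonds for the mean over probes, bars for the error from the scanner software, and open circles for single probes where a gene has several. The values run from -0.40 for Mx2 to 1.503 for Zbp1, and the probes of Parp9, Trim30a, Zbp1, Ifih1, Irf5, Stat2 and Ifnar1 lie at least 0.5 apart.

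The sensors had a median difference of 0.91 over 5 genes. All 5 were above 0 (Ifih1 by 0.01, and below 0 in the authors' table), where 54.8% of all gene names were. The RNA sensors of the RIG-I family differed among themselves. Zbp1, which binds left-handed nucleic acid and can trigger necroptosis, had the highest difference of the 31 members measured on both arrays, at 1.503, a 2.83-fold higher value on the knockout array. That rank did not hold in every setting, since Zbp1 stood at 1.09 with its brightest probe, below Trim30a at 1.57, and at 0.68 with normexp, below Ifitm1 at 1.05. Its probes read 182 and 65.0 on the knockout array and 87.8 and 17.6 on the wild-type array. The wild-type signal of the dimmer Zbp1 probe was only 1.37 times the lowest signal well above background on that array. Whether either Zbp1 probe also detects other transcripts or repeat sequence was not tested. Sting1, the adaptor for cytosolic DNA sensing, read 686 on the knockout array and 374 on the wild-type array, a difference of 0.91 ± 0.20 (scanner error). Dhx58 encodes LGP2, the RIG-I relative without signalling domains, and read 215 on the knockout array and 113 on the wild-type array, a difference of 0.96. Ddx58, the gene of RIG-I, differed by 0.18 over 4 probes that ran from 0.03 to 0.33, the brightest reading 3218 on the knockout array and 2618 on the wild-type array. Ifih1, the gene of MDA5, averaged 0.01, or -0.03 in the authors' table, because its probes disagreed. The probe for its RefSeq transcript read 804 on the knockout array and 611 on the wild-type array (0.43), and a dim probe for an Ensembl transcript read 23.1 on the knockout array and 31.4 on the wild-type array (-0.41).

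The transcription factors had a median difference of 0.33 over 6 genes, with 5 above 0, where 54.8% of all gene names were, and 0 at least 2-fold apart. With the brightest probe of each gene the median was 0.049, and it was 0.096 when dim probes were filtered more strictly. Irf7, the amplifier of interferon synthesis and itself interferon-induced, was higher on the knockout array at both probes. These read 8511 and 629 on the knockout array and 6380 and 435 on the wild-type array, differences of 0.45 and 0.56. The constitutive factor gene Irf3 read 18393 on the knockout array and 18594 on the wild-type array, a difference of 0.02 at that probe and 0.05 at the other. Irf9, the DNA-binding subunit of the STAT complex, differed by 0.15, and Irf1, which is induced mainly by interferon gamma, was lower at -0.28 over probes at -0.38 and -0.18. Stat2 averaged 0.56 over a bright probe at 0.04, which read 2162 on the knockout array and 2144 on the wild-type array, and a dim one at 1.07, which read 49.3 on the knockout array and 24.0 on the wild-type array. Irf5, a factor of myeloid and B cells, averaged 0.69 over probes at 1.32 and 0.05. The Irf5 probes lie apart in the gene, at chr6:29486901-29486960 and chr6:29491799-29491858 of mm9, plus strand. They are shown, with no stretch in capitals, because they give different answers for the same gene.
Irf5, RefSeq transcript: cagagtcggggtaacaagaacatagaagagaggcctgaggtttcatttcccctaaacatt
Irf5, AK171356: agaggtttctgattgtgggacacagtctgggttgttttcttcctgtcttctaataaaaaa
The RefSeq probe read 372 on the knockout array and 152 on the wild-type array, and the AK171356 probe read 90.7 on the knockout array and 89.6 on the wild-type array.

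Both receptor subunits had mean differences below 0, which for Ifnar2 did not hold on the spike-in scale. Ifnar1 differed by -0.17 over 4 probes, of which 3 ran from -0.07 to 0.03 and the one for an Ensembl transcript stood at -0.60. Its brightest probe read 9790 on the knockout array and 10461 on the wild-type array. Ifnar2 read 7937 on the knockout array and 8710 on the wild-type array at its brighter probe and differed by -0.06 over 2 probes, or by 0.08 when spike-in controls set the scale.

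The members at least 2-fold higher lay in the dim to middle signal ranges. The 4 members in the dimmest 20% of protein-coding genes, Ifit1, Ifi44, Trim30a and Zbp1, were all at least 2-fold higher on the knockout array, where 8.02% of genes of that signal range were. In the next 20%, 1 of 10 members was, against 4.46%, and in the middle 20%, 1 of 5, against 1.84%. Among the brighter 12 members none was, where the shares were 1.07% and 0.356% of protein-coding genes. The median member difference was 1.29, 0.44, 0.76, 0.19 and 0.04 from the dimmest to the brightest 20%, so it did not fall at every step. Dim probes have wider errors, and differences of any gene near background are less precise.

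**Figure D3:**
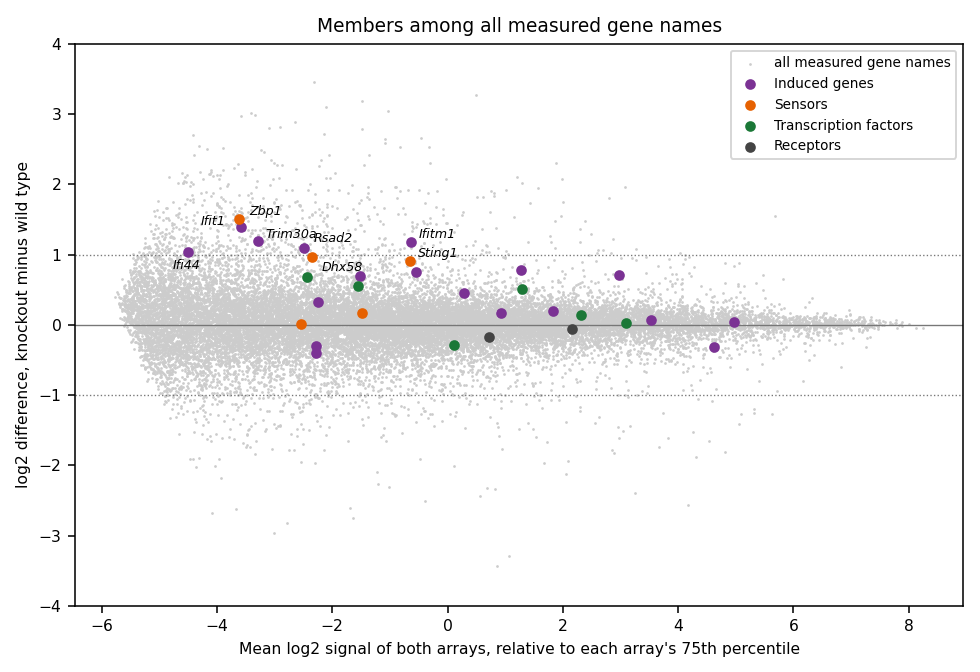
The log2 difference, knockout minus wild type, against the mean log2 signal of both arrays relative to each array's 75th percentile, with all 22890 measured gene names in grey (1 lies outside the plotted range) and the 31 members coloured by class. Members past the dotted 2-fold line lie at the left and centre, and the 7 members in the brightest 20% lie near 0 except Ifitm3 at 0.71 and Ifi27 at -0.32.

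The response element was looked for in the promoters, since interferon acts on many induced genes through it. RefSeq promoter windows of build GRCm38.p6, from 250 bases before to 50 bases after a transcript start, were at hand for 26 members. Dhx58, Ifi27, Mx1, Mx2, Parp9, Parp14, Sting1, Usp18 and Zbp1 had no entry. The core searched was GAAA, any 2 bases and GAAA again, on either strand, which reads TTTC, any 2 bases and TTTC on the other one, and matches may overlap each other. It was present in the windows of 12 of 26 member genes (46.2%), against 1079 of 27025 genes with a window (3.99%). By class it was found in 9 of 16 induced genes, 2 of 2 sensors, 1 of 6 transcription factors and 0 of 2 receptor subunits. Of the members measured on both arrays, 10 had the core, all 10 with a difference above 0 (Ifih1 by 0.01 only) and a median of 0.64. The 13 measured members whose windows lack these letters had a median of 0.17, with 10 above 0, and Ifitm1 and Ifi44 were at least 2-fold higher among them. They include both receptor subunits and all transcription factors but Stat2, so the medians of 0.64 and 0.17 compare groups of unlike class. Among the other pathway genes, 23 of 33 with the core were above 0 (69.7%, median 0.365) and 50 of 68 without it (73.5%, median 0.15). At least 2-fold higher were 5 of 33 with the core (15.2%) and 5 of 68 without it (7.35%). Among protein-coding genes outside the interferon lists, 22 of 416 with the core were at least 2-fold higher on the knockout array (5.29%), against 332 of 11819 without it (2.81%). Of these genes, 58.2% with the core and 56.2% without it were above 0.

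Windows of 5 members are printed to show the element where the gene was at least 1.5-fold higher on the knockout array (Ifit1, Ifit3, Isg15 and Rsad2) and where the difference was within the scanner error (Bst2), with matches in capitals. Positions are counted from the start site as 0. Ifit1 (chr19:34640639-34640938, plus strand) and Ifit3 (chr19:34583279-34583578, plus strand) hold the same pair of cores, TTTCACTTTC and TTTCAGTTTC, beginning at -104 and -85 in Ifit1 and at -156 and -122 in Ifit3. Isg15 (chr4:156200769-156201068, minus strand) holds 3 overlapping matches that begin at -78, -72 and -66. Rsad2 (chr12:26456403-26456702, minus strand) has 1 match at -120, and Bst2 (chr8:71537423-71537722, minus strand) has 2 overlapping ones at -130 and -124. Each is written on the strand of its gene.
Ifit1: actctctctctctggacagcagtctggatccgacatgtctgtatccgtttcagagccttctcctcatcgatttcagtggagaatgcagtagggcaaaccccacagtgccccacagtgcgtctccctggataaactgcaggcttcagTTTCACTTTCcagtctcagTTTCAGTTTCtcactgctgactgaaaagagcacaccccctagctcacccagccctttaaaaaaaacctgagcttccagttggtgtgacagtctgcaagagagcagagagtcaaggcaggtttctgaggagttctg
Ifit3: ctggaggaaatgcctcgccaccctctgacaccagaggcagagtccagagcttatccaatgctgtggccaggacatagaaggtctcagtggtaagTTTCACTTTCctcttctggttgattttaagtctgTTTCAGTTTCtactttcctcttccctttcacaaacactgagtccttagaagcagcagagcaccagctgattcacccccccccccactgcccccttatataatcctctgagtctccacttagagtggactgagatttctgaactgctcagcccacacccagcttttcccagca
Isg15: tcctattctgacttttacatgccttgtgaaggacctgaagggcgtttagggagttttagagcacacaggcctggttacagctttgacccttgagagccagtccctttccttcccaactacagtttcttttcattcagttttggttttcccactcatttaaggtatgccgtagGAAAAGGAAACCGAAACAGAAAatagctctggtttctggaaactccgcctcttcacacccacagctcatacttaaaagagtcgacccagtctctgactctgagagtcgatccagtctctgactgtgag
Rsad2: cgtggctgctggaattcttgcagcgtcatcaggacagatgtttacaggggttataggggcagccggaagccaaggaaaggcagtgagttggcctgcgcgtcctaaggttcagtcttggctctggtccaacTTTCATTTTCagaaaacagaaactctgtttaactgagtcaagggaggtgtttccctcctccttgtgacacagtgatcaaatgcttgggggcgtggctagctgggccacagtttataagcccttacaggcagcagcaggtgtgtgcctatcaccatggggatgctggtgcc
Bst2: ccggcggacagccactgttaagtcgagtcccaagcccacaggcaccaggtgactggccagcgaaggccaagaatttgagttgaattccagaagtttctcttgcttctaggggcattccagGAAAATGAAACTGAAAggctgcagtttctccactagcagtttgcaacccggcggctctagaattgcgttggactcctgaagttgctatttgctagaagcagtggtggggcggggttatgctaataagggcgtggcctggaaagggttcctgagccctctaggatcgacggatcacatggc
A match to these letters does not show binding, and Bst2 with a difference of 0.04 carries the core as Isg15 does with 0.78.

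**Figure D4:**
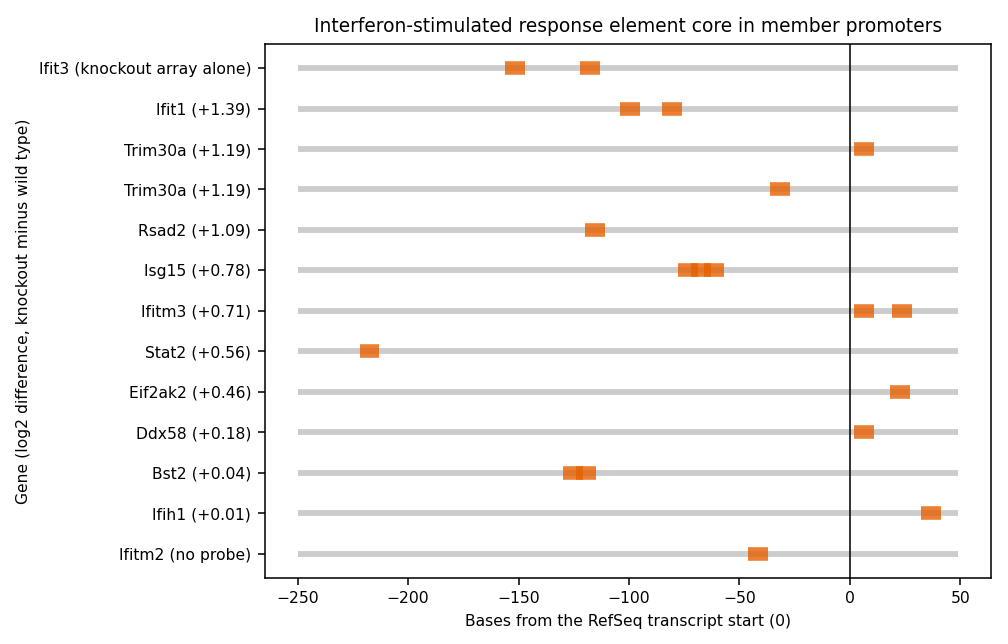
Position of the core (GAAA, any 2 bases, GAAA, on either strand) in the 13 promoter windows of members that hold it, in bases from the RefSeq transcript start at 0, with 1 grey bar per window and matches in orange. Windows run from the gene with the highest log2 difference, knockout minus wild type, at the top after Ifit3, and matches lie within 250 bases before and 50 bases after the start, from -222 in Stat2 to 32 in Ifih1.

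Irf1 differed from the other induced factors in direction. Its promoter is known for a gamma-activated site rather than for the response element, and whether the site bears on the direction was not tested. The letters searched for that site were TTCNNNGAA, which read the same on the other strand. They occurred in the windows of 9 of 26 members (34.6%), against 9.55% of all genes with a window. Besides Irf1, these were Ifitm3 (difference 0.71), Eif2ak2 (0.46), Ifi35 (0.19), Adar (0.17), Bst2 (0.04), Ifnar2 (-0.06) and Ifnar1 (-0.17). Ifit2, well above background on the knockout array alone, also held them. In the Irf1 window at chr11:53769764-53770063, plus strand, the letters begin at -90 and are in capitals.
Irf1: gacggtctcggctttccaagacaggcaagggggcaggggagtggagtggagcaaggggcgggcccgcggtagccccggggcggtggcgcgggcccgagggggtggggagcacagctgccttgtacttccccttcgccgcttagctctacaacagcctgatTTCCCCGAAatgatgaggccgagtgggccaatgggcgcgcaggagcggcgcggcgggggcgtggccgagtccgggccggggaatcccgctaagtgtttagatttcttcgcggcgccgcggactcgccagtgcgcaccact
Irf1 read 3701 on the knockout array and 4936 on the wild-type array at its brighter probe, a difference of -0.38, and its other probe stood at -0.18.

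The rest of the interferon pathway, taken from a list of 144 further genes, also held more genes at least 2-fold higher on the knockout array than all gene names did. Of 119 measured, 13 passed 2-fold upwards on the knockout array (10.9%, against 2.93% of all gene names). Downwards 1 did (Socs3), where 1.37% of all gene names did. The median difference was 0.17, against 0.03 for all gene names, and 87 lay above 0, where 54.8% of all gene names did. Among 71 other induced genes, 58 lay above 0 and 10 were at least 2-fold higher (14.1%). These included the nuclear body gene Sp100 (83.5 on the knockout array and 22.9 on the wild-type array, 1.90), Ifi27l2a (2636 on the knockout array and 736 on the wild-type array, 1.87) and Phf11a, Phf11b and Phf11d (1.76, 1.59 and 1.54). The guanylate-binding protein genes Gbp6 and Gbp4 stood at 1.44 and 1.23. They were dim, at 36.1 and 62.7 on the knockout array and 13.6 and 27.3 on the wild-type array. The lowest passing wild-type signal was 12.9. The other measured Gbp genes of the list, Gbp3, Gbp7, Gbp2 and Gbp5, stood at 0.52, 0.48, -0.02 and -0.17. Slfn5 averaged 1.40 over probes from 0.20 to 2.02, and the other measured Slfn genes ran from -0.20 for Slfn9 to 0.73 for Slfn4. The galectin gene Lgals9 stood at 1.18. Of 139 genes of the list with a probe, 4 (Ifit3b, Slfn1, Ms4a4b and Gm4951) were well above background on the knockout array alone, against 2.22% of all gene names. On the wild-type array alone 2 were, the interferon genes Ifna5 and Ifna15, against 3.42% of all gene names. Ifna15 read 14.8 there, below the lowest signal well above background on the knockout array, 15.8.

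Signal transducers had a median closer to 0 than the 0.30 of the other induced genes. Among 39 measured signalling genes the median was 0.06, with 24 above 0, where 54.8% of all gene names were, and 2 at least 2-fold higher (5.13%). The kinase genes Jak1 and Tyk2 differed by 0.05 and 0.71, and the Tyk2 value averaged probes at 0.14 and 1.29. Mavs, the mitochondrial adaptor of RIG-I, differed by 0.19, the kinase gene Tbk1 by -0.03, Traf3 by 0.03 and the DNA sensor gene Cgas by -0.08. Ptpn6, a phosphatase gene of blood cells, was at least 2-fold higher at 1.25, and Socs3, a feedback inhibitor gene of cytokine receptors, was the member of this list at least 2-fold lower, at -1.53. It read 8877 on the knockout array and 26177 on the wild-type array. Of 22 interferon and receptor genes with a probe, 11 were well above background on neither array, where 32.5% of all gene names were. All 11 were interferon genes, including Ifnb1, Ifng and Ifne. Over the 9 measured the differences ran from -0.60 for Ifnl3 to 1.23 for Ifna14. Ifna14 read 36.9 on the knockout array and 16.1 on the wild-type array (1.23), near background on both, and the interferon alpha genes are near-identical copies that such probes may not separate.

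Markers of white blood cells were higher on the knockout array along with the interferon genes. Of 20 myeloid markers, 19 were measured on both arrays, all 19 above 0 and 15 at least 2-fold higher on the knockout array, with a median of 1.45. The signals of their probes summed to 98746 on the knockout array and 45901 on the wild-type array. Mrc1 was the highest at 2.54 and Cd14 the lowest at 0.15, and Cx3cr1 was well above background on the knockout array alone. None of the myeloid markers was at background on both arrays. Of 12 lymphoid markers, 8 were measured, 7 above 0 and 3 at least 2-fold higher, the highest being Cd79b at 1.93 and the lowest Gzma at -0.47, with summed signals of 5770 on the knockout array and 3255 on the wild-type array, while Cd3g and Nkg7 were well above background on neither. Red cell markers lay on the other side, with 5 of 6 measured at least 2-fold lower, a median of -1.31 and summed signals of 27689 on the knockout array and 87088 on the wild-type array. Among them Hba-a2 was the lowest at -1.66 and Slc4a1 the highest at -0.095. Cumulus and granulosa markers had a median of 0.23 over 12 genes, from -0.81 for Amh to 1.16 for Has2, the 1 gene at least 2-fold higher, with summed signals of 184568 on the knockout array and 170844 on the wild-type array. Oviduct and endothelial markers had a median of 0.35 over 10 genes, from -0.27 for Tek to 1.54 for Ovgp1, with 3 at least 2-fold higher and summed signals of 147214 on the knockout array and 104132 on the wild-type array. Ovgp1, the oviduct glycoprotein gene, read 69104 on the knockout array and 24266 on the wild-type array, so the sum without it was not higher on the knockout array. Oocyte markers had a median of 0.16. In pooled RNA a change in the number of cells of a type and a change of RNA per cell cannot be told apart. The part of blood, cumulus or oviduct cells in the interferon differences was not tested.

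**Figure D5:**
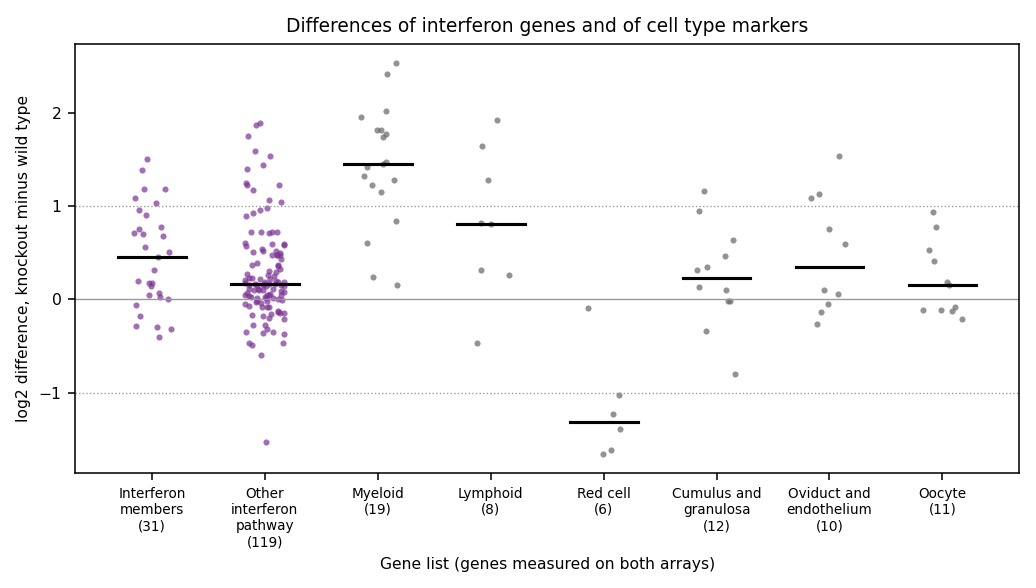
The log2 difference, knockout minus wild type, of genes measured on both arrays, for the interferon members, the other interferon pathway genes and markers of 6 cell types, with 1 point per gene, a black line at the median and the number of genes in parentheses. The myeloid median of 1.45 lies above the member median of 0.46, and the red cell median of -1.31 lies below 0.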

How the data were processed

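Each array was deposited as a scanner table of linear spot intensity from Agilent Feature Extraction, version 10.7.1.1 per the file headers and 9.5.1.1 per the submitters' processing notes. Per the file headers the processed intensity had local background and spatial trend removed array by array, and arrays were not adjusted to each other. Probe positions are on mm9 and the array design is 074809, per the file headers. The authors' deposited series-wide table of intensity is linear and quantile normalised, since its sorted columns were the same within 0.0243%. Its median was 57.95 in both columns, it followed the scanner values with r = 0.99997 on each array, and no centring of genes was seen.

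Control spots and outlier spots (84 on the knockout array, 88 on the wild-type array) were left out, replicate spots were averaged, and 56600 of 56605 probes were used. The log2 of the processed intensity minus each array's 75th percentile (signals of 790 on the knockout array and 808 on the wild-type array) was taken. Gene names are those of the file, updated by synonym through a RefSeq table of GRCm38.p6 for 1895 probes, and 13010 probes kept a name outside that table. Of the probes, 64.5% were well above background on the knockout array and 66.0% on the wild-type array, and 0 spots were saturated. The dimmest probe to pass that criterion read 15.8 on the knockout array and 12.9 on the wild-type array. Spot noise, taken from 296 probes with 10 spots apiece, gave the log2 difference a median SD of 0.04.

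No test was possible, so calls are by size alone, past 2-fold or 1.5-fold. All 35 members are named, with Mul1, Gapdh, Actb, set signalling genes (1 of them is not reported here), up to 12 further pathway genes at least 2-fold apart and the extreme members of each marker list. The other measured Gbp genes, the extremes of the other Slfn genes and the oocyte marker Nlrp5 are named beside these. Members and lists were chosen with earlier results of these data known. The calculation was tested on simulated data with known changes. Alternatives were other scalings (median of detected probes, quantile, loess with span 0.3, spike-in controls over 7 probes), normexp background correction (offset 50), the authors' table, a dim-probe filter either dropped or tightened (to 4 times the lowest passing signal), each gene's brightest probe, outlier flags not used, and naming by accession. Python 3.11.15, numpy 2.4.6, pandas 2.3.3, R 4.3.3 and limma 3.58.1 were used.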

Additional observations from a re-analysis of the deposited data

How the results depend on the processing

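Of 99 recomputed medians and counts, 90 stayed within the scanner error of their main value or, for counts, within 1.5 times it. With normexp, whose offset of 50 is added to every signal and so compresses dim probes, 1 member (Ifitm1) was at least 2-fold higher, against 0.926% of all gene names. The median difference was then 0.22 over members and 0.68 over sensors, and 4 other pathway genes were at least 2-fold higher. A stricter filter on dim probes, which tests fewer genes, left 3 members at least 2-fold higher, against 1.86% of all gene names, and a transcription factor median of 0.096. That median was 0.049 with the brightest probe of each gene. Without a filter on dim probes the sensor median was 0.65, and 3 other pathway genes were at least 2-fold lower. On the spike-in scale, which moved the median of all gene names to 0.16, 8 members were at least 2-fold higher, against 3.94% of all gene names, and the sensor median was 1.04. No member at least 2-fold apart changed sign under these alternatives. Parp9 stood at 0.23 with the brightest probe or the stricter filter, and Ifih1 at -0.03 in the authors' table. No paired analysis was possible because each genotype has 1 array. The number of arrays limits every value, and signals near 15.8 on the knockout array or 12.9 on the wild-type array carry the widest errors.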
